A study of Mus musculus with 27 samples.

Results

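Poly(A) RNA of mouse embryonic stem cells was compared between 6 h and 3 h after release from a thymidine block, in cells that received no triptolide. The comparison rests on 2 of the 27 samples of the series, 1 library at each time. Of the 137271 transcripts listed, the 10926 whose mean CPM (reads of a transcript per 1000000 reads of its library) over the 4 RNA libraries reached 10 were kept. Just inside that limit lay a transcript with a mean CPM of 10.000 (11.7 CPM at 3 h and 12.4 CPM at 6 h), and just outside it one with 9.9991 (6.78 and 8.67 CPM).

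The stem cell line, KH2, was built for doxycycline-inducible transgenes, and carried Flag-BAP tags on histone H3 genes (BAP is a peptide that the ligase BirA can biotinylate). They grew with LIF, inhibitors of MEK1/2 (1 µM) and of GSK3 (3 µM). Synchronisation used thymidine for 18 h, a gap of 7 to 8 h and a second thymidine treatment of 12 to 13 h. The groups were untreated cells at 3 h and at 6 h of release, and cells with 1 µM triptolide, a plant compound that blocks the start of transcription, at the same times. The treated libraries enter here through the filter and as values set beside the untreated ones. The labels do not say whether the cells of the RNA libraries received doxycycline or biotin. The series as a whole concerns the fate of parental histones in active and repressed chromatin during replication, and the labels give no separate aim for the RNA libraries.

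Excess thymidine stops DNA synthesis by unbalancing the nucleotide pools, so cells gather at the start of S phase and move through it together once the thymidine is washed out. In cycling cells, genes of the replication machinery and the E-type cyclins are typically expressed around the start of S phase, and genes for mitosis, such as cyclin B and the mitotic kinases, typically rise as cells near G2. Most replication-dependent histone messages end in a stem-loop without a poly(A) tail, so poly(A) selection largely leaves them out. Embryonic stem cells cycle fast, with a short G1 phase, and keep many cell cycle genes active throughout.

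The deposited tables give transcript identifiers without gene names, and 0 of the 137271 identifiers occurred in the gene tables used here. Cell cycle, pluripotency and other marker genes could therefore not be looked up, so neither the position of the cells in S phase nor their stem cell identity was checked against markers. Up to 2 transcripts in each direction are given by identifier, and others by length. Totals were 27443889 reads at 3 h and 24913767 reads at 6 h, and the kept transcripts held 90.9% and 90.8% of them. Where no read was counted the level may still be as high as 3 reads, which is 0.109 CPM at 3 h and 0.120 CPM at 6 h. With 1 library a time no difference has a replicate check, and "higher" and "lower" describe these libraries. Because CPM is a share of a library's RNA, a changed share of cells and changed RNA per cell cannot be told apart.

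Between 3 h and 6 h most abundant transcripts kept nearly the same share of the reads. Of the 10926 kept transcripts, 7725 (70.7%) differed by less than 1.2-fold. The median log2 ratio of CPM, 6 h over 3 h, was -0.01, the middle 50% of transcripts lay between -0.17 and 0.14, and the 5th and 95th percentiles were -0.48 and 0.45. At least 1.5-fold higher at 6 h were 314 transcripts (2.87%), and 359 (3.29%) were at least 1.5-fold lower. At the 2-fold limit used from here on, 68 transcripts (0.622%) were higher and 62 (0.567%) lower. At least 4-fold higher were 5 (0.0458%) and at least 4-fold lower were 15 (0.137%). In all, 4.85% of the reads changed hands among kept transcripts, as the summed size of the changes in share divided by 2, and the 130 transcripts past 2-fold accounted for 0.240%.

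**Figure D1:**
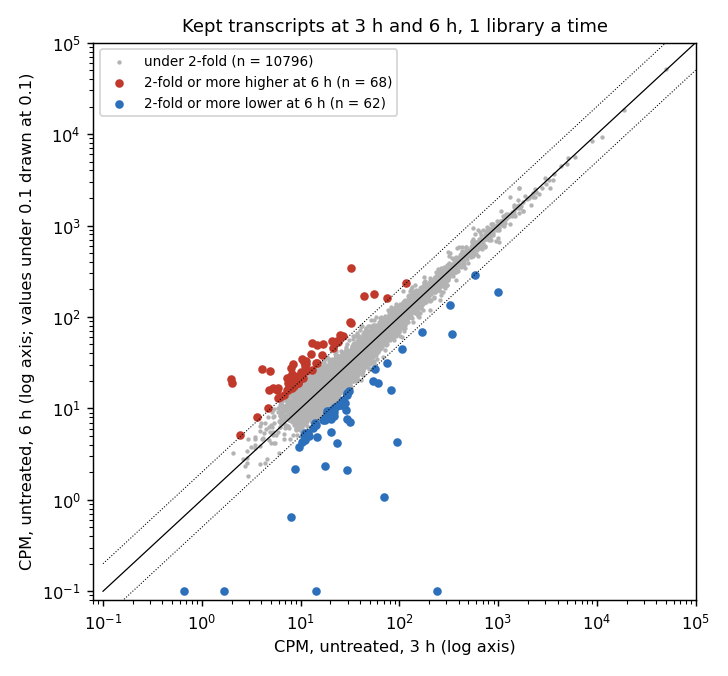
CPM of each kept transcript in the untreated 3 h library (x) and the untreated 6 h library (y), both on log axes; the solid line marks equal CPM and the dotted lines 2-fold. Most of the 10926 points lie close to the solid line; the 68 higher (red) and 62 lower (blue) transcripts are mostly at low CPM, and 4 lower ones have no reads at 6 h.

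The leading gain at 6 h came from a transcript that was low in 1 library alone. ENSMUST00000026420.6 (681 nt) had 32.4 CPM at 3 h and 342 CPM at 6 h without triptolide, and 394 and 460 CPM with it. Only the untreated 3 h library was low, and the other 3 lay close together. The untreated ratio was 10.5-fold higher at 6 h (890 against 8514 reads; log2 ratio 3.40, 95% counting interval 3.30 to 3.50). The interval is an exact conditional binomial (Clopper-Pearson) one and covers counting error only, not the error of dividing shared reads among similar transcripts.

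The first transcript in the lower direction was nearly absent from 2 libraries. ENSMUST00000178993.2 (331 nt) had 93.8 CPM at 3 h and 4.25 CPM at 6 h without triptolide, and 47.1 CPM at 3 h and 0 CPM at 6 h with it. Both 6 h libraries were far below both 3 h libraries. Without triptolide it was 22.0-fold lower at 6 h (2574 against 106 reads; log2 ratio -4.46, interval -4.76 to -4.18). These 2 transcripts ranked first in their direction by the inner end of the interval, the one closer to a ratio of 1, among those with 100 or more reads in both untreated libraries.

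Most transcripts past 2-fold were modest in size, and few were abundant. Of the 68 higher ones, 37 were under 2.5-fold and 53 under 3-fold. The lower group held 37 under 2.5-fold and 43 under 3-fold of its 62. Their levels were low: the higher group had a median of 9.55 CPM at 3 h and 23.5 CPM at 6 h, the lower group 21.7 and 8.29 CPM, and all kept transcripts 30.6 and 30.1 CPM. Together the higher transcripts went from 0.103% to 0.291% of the reads, and the lower ones from 0.417% to 0.126%. In 41 of the 68 and 35 of the 62, the counting interval lay wholly beyond 2-fold. At least 100 reads in both untreated libraries were found for 65 of the 68 and 52 of the 62.

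Among transcripts whose mean CPM reached 100, past 2-fold there were 3 higher and 4 lower transcripts. ENSMUST00000026420.6 was the first of the higher ones. A transcript of 468 nt had 75.5 CPM at 3 h and 160 CPM at 6 h untreated, and 116 and 186 CPM with triptolide, so it was higher at 6 h in both arms (2.11-fold untreated). One of 2824 nt went from 117 to 234 CPM untreated (2.01-fold) and from 265 to 425 CPM with the drug. The treated 3 h library was already above the untreated 6 h library for this transcript.

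The largest loss among them belonged to a transcript of 661 nt. It had 990 CPM at 3 h and 187 CPM at 6 h untreated, 5.28-fold lower (log2 ratio -2.40, interval -2.45 to -2.36), and 451 and 689 CPM with triptolide. Its treated libraries thus lay between the untreated ones and moved the other way with time. A transcript of 478 nt was highest in the untreated 3 h library, at 344 CPM against 65.2 CPM at 6 h untreated. Both treated libraries, at 26.1 and 25.5 CPM, were below both untreated ones. A transcript of 311 nt went from 325 to 136 CPM untreated (2.38-fold lower) and from 364 to 813 CPM treated. The last, of 596 nt, went from 589 to 288 CPM untreated (2.05-fold lower) and from 311 to 447 CPM treated. Of the 4 lower ones, 3 were thus higher at 6 h than at 3 h in the presence of triptolide, and the fourth was level. A rise with the drug was not particular to them. It was seen in 34.8% of all kept transcripts, and in 74.3% of the 210 whose mean CPM reached 500. The count of 3 was not tested against either share.

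**Figure D2:**
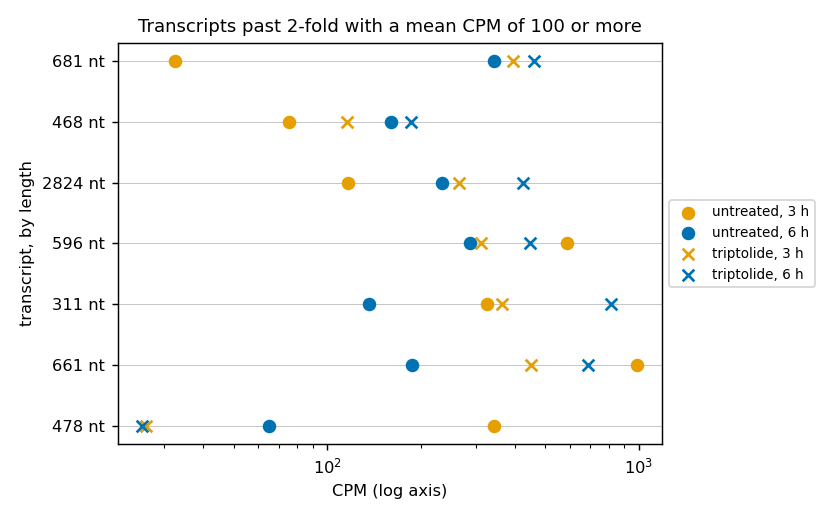
CPM (log axis) in each of the 4 RNA libraries for the 7 transcripts past 2-fold with a mean CPM of 100 or more, 1 line a transcript, named by length; circles are untreated and crosses triptolide, orange 3 h and blue 6 h. The 681 nt transcript is low in the untreated 3 h library alone (32.4 CPM), and the 478 nt transcript is highest in it (344 CPM).

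Short transcripts made up most of the changes of 4-fold or more. Of the 5 at least 4-fold higher, 4 were under 1000 nt, and of the 15 at least 4-fold lower, 10 were, where 14.9% of the kept transcripts were that short. The higher ones ran from 383 to 1071 nt and the lower ones from 331 to 1922 nt. Among the lower ones, 4 of 387 to 468 nt had 0 reads at 6 h without triptolide. The longest of them, of 468 nt and distinct from the one above, had 241 CPM (6616 reads) in the untreated 3 h library, 0 at 6 h, and 3.63 and 5.69 CPM with triptolide, so it was high in 1 library alone; against the limit of 3 reads it was at least 2002-fold lower at 6 h. One of 412 nt was at 14.2 CPM and 0 untreated, and at 14.5 and 19.6 CPM treated, low in 1 library alone and at least 118-fold lower at 6 h. The other two of these, of 387 and 436 nt, had 46 and 18 reads at 3 h untreated and reached the filter through the treated 6 h library, where they had 245 and 48.2 CPM. Lower transcripts of 526 and 639 nt were under 10 CPM in both untreated libraries. They had 21.2 and 28.0 CPM in the treated 6 h library. Like the 412 nt one, they were kept only because the filter also used the treated libraries. The comparison with 14.9% thus depends in part on such members.

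The share past 2-fold was smaller in longer transcripts. Under 1000 nt, 15 of 1632 transcripts (0.919%) were higher and 20 (1.23%) lower. From 1000 to 2000 nt there were 19 of 2405 higher (0.790%) and 14 lower (0.582%), while the class of 2000 to 4000 nt held 29 of 4056 (0.715%) and 21 (0.518%). Of the 2833 transcripts that reached 4000 nt, 5 (0.176%) were higher and 7 (0.247%) lower, and none of the 435 transcripts of 8000 nt or more passed 2-fold in either direction. The central spread did not follow the same order. The 25th and 75th percentiles were 0.31 apart in the class of 500 to 1000 nt, 0.33 in that of 2000 to 4000 nt and 0.30 in the longest class.

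Ratios spread less widely in more abundant transcripts. The distance between the 25th and 75th percentiles of the log2 ratio was 0.42 at a mean CPM of 10 to 20, 0.32 from 20 to 50, 0.24 from 50 to 100, 0.21 from 100 to 500 and 0.18 at 500 or more. The typical 95% counting half-width narrowed from 0.21 in the first class to 0.14, 0.09, 0.06 and 0.03 in the last. Past 2-fold were 46 higher and 41 lower of 3771 transcripts in the first class (1.22% and 1.09%). At 500 CPM or more 0 of 210 were higher and 1 lower.

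**Figure D3:**
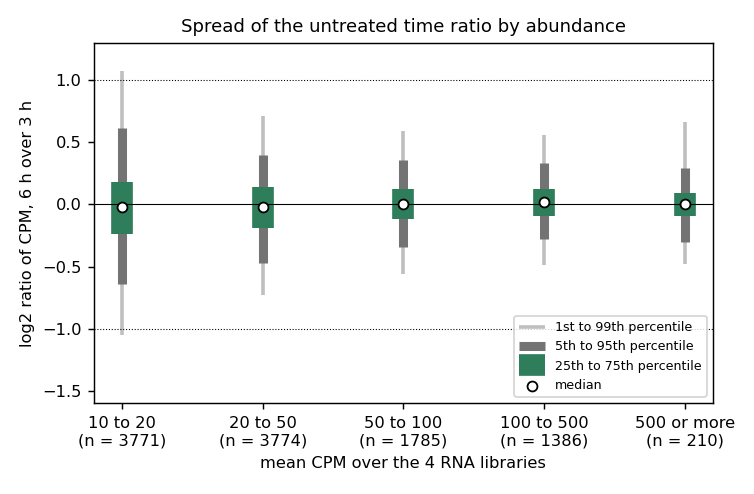
Percentiles of the log2 ratio of CPM, 6 h over 3 h untreated, for kept transcripts in 5 classes of mean CPM; bars span the 25th to 75th, 5th to 95th and 1st to 99th percentiles, white points are medians, and dotted lines mark 2-fold. The middle 50% narrows from a width of 0.42 at 10 to 20 CPM to 0.18 at 500 CPM or more, and the 1st and 99th percentiles pass the 2-fold lines only in the lowest class.

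Among the 210 transcripts at a mean CPM of 500 or more, where counting error is least, 4 were at least 1.5-fold higher at 6 h and 2 at least 1.5-fold lower. The 4 higher ones fell into 2 patterns in the treated libraries. A transcript of 2394 nt went from 1634 to 2606 CPM untreated (1.60-fold) and stood at 1028 and 863 CPM with triptolide, and one of 1941 nt went from 556 to 936 CPM (1.68-fold) and stood at 403 and 340 CPM. Both were below either untreated library when the drug was present. A transcript of 1169 nt went from 1641 to 2564 CPM untreated (1.56-fold) and from 3216 to 4017 CPM treated, and one of 3329 nt from 1308 to 2069 CPM (1.58-fold) and from 2851 to 5455 CPM. These were above both untreated libraries in each treated library. Neither order was particular to these 4 transcripts. The first, with both treated libraries below both untreated ones, was found in 38.1% of all kept transcripts, and the second was also common among them. The split is therefore given as a description.

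The lower pair at this level were the 661 nt transcript described above and one of 482 nt. The latter went from 1027 to 653 CPM untreated (1.57-fold lower, log2 ratio -0.65, interval -0.68 to -0.63) and from 810 to 462 CPM with triptolide, so it was lower at 6 h in both arms. Of the 8 lowest ratios at this level, 7 belonged to transcripts that were higher at 6 h than at 3 h with triptolide, and the 482 nt transcript was the exception. Of all 210 transcripts at this level, 156 (74.3%) were higher at 6 h with triptolide, beside 87.5% of these 8, and the shares were not tested. Several of the 8 carry closely numbered identifiers, and whether they vary together was not tested. Among the 7, one of 1038 nt went from 952 to 682 CPM untreated (1.40-fold lower) and from 1038 to 1311 CPM treated. One of 1824 nt went from 998 to 729 CPM untreated (1.37-fold lower) and from 1074 to 1472 CPM treated.

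The most abundant transcripts of all were close to level. The 10 highest by mean CPM held 11.7% of reads at 3 h and 11.3% at 6 h, 7 of them slightly lower and 3 slightly higher at 6 h, with log2 ratios from -0.36 to 0.10. The highest, of 1849 nt, had 50372 and 50956 CPM. The third, of 1545 nt, lost the most CPM of any kept transcript, from 11264 to 9192 CPM (1.23-fold lower), and went the other way with triptolide, from 14423 to 18420 CPM. A 681 nt transcript among the 10, not the one named above, went from 3354 to 2605 CPM untreated and from 4085 to 5677 CPM treated. The largest gains in share were those of the 2394 nt (972 CPM), 1169 nt (922 CPM) and 3329 nt (761 CPM) transcripts.

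Salmon divides reads that match several transcripts among them, which gives fractional counts. Transcripts with undivided reads give whole counts, so those whole in all 4 libraries, within 1e-06 and under 10000 reads, were looked at apart. Of 117 such whole-number transcripts 0 were at least 2-fold higher, which allows up to 2.56%, and 1 was lower (0.855%), beside 0.622% and 0.567% of all kept transcripts. The set held none of the 68 higher transcripts and 1 of the 62 lower ones. The part of read division in the 2-fold changes was not tested. The whole-number transcripts had a median log2 ratio of -0.07, and their 5th and 95th percentiles were -0.52 and 0.25. With 1 library a time, this median has no replicate check.

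Both whole-number transcripts that ranked first were very short. ENSMUST00000082398.1 (69 nt), the one past 2-fold, had 11.2 CPM at 3 h and 5.38 CPM at 6 h untreated, and 13.8 and 14.8 CPM with triptolide. The untreated 6 h library was low and the other 3 were close, with an untreated ratio 2.07-fold lower (306 against 134 reads; log2 ratio -1.05, interval -1.36 to -0.75). ENSMUST00000175257.1 (74 nt) had 9.04 and 14.1 CPM untreated and 13.0 and 36.5 CPM treated. It was 1.56-fold higher at 6 h without the drug (248 against 351 reads; log2 ratio 0.64, interval 0.40 to 0.88), below the 2-fold limit. Both were shorter than the mean fragment implied by the effective lengths, 83.8 nt at 3 h and 84.8 nt at 6 h.

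Longer whole-number transcripts stayed under 2-fold. The next lower ones were of 2035 nt, at 14.1 and 7.71 CPM untreated (1.83-fold lower) and 12.0 and 8.46 CPM treated, and of 1274 nt, at 13.1 and 8.11 CPM untreated (1.62-fold lower) and 10.9 and 9.72 CPM treated. Both were lower at 6 h in both arms. The next higher ones were of 783 nt, at 19.2 and 27.8 CPM untreated (1.45-fold) and 23.9 and 26.9 CPM treated, and of 741 nt, at 25.8 and 33.1 CPM untreated (1.28-fold) and 26.6 and 31.0 CPM treated. These were higher at 6 h in both arms. Of those ranked after them, some agreed between the arms and some did not. A lower one of 4314 nt went from 12.4 to 7.83 CPM untreated and from 9.58 to 10.6 CPM treated. A higher one of 7268 nt went from 12.4 to 15.1 CPM untreated and from 10.6 to 6.53 CPM treated.

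The treated pair of libraries, 6 h against 3 h with triptolide, shares no library with the untreated pair. In the treated pair 232 of the 10926 kept transcripts (2.12%) were at least 2-fold higher and 1400 (12.8%) at least 2-fold lower. Of the 68 transcripts higher at 6 h without the drug, 9 (13.2%) were also at least 2-fold higher with it and 10 (14.7%) at least 2-fold lower. By sign alone 31 (45.6%) were higher and 37 (54.4%) lower, where 34.8% of all kept transcripts were higher and 65.2% lower in the treated pair. Of the 62 lower without the drug, 12 (19.4%) were also at least 2-fold lower with it and 12 (19.4%) at least 2-fold higher, and by sign 32 (51.6%) were lower and 30 (48.4%) higher. In both groups the share at least 2-fold higher with the drug was above the 2.12% of all kept transcripts. The filter used the treated libraries too, and some transcripts of both groups were kept through them. A lower one of 387 nt had 0 and 245 CPM treated. A higher one of 1414 nt had 2.44 and 5.10 CPM untreated, and 6.24 and 28.1 CPM treated. The share at least 2-fold higher with the drug is therefore not independent of the filter in either group. The share at least 2-fold lower stood nearer to the 12.8% of all kept transcripts, and these shares were not tested.

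**Figure D4:**
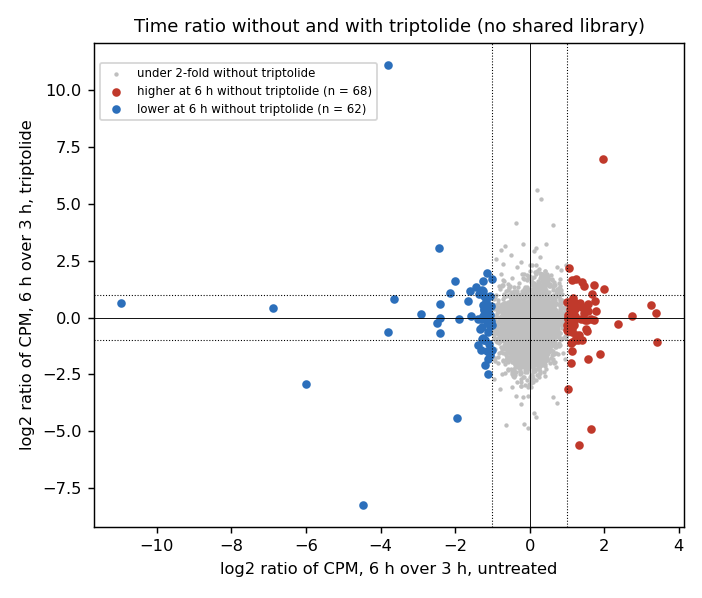
Log2 ratio of CPM, 6 h over 3 h, without triptolide (x) and with it (y) for the kept transcripts; red and blue points are the 68 higher and 62 lower untreated ones, and dotted lines mark 2-fold. Both coloured groups spread to either side of 0 on the y axis, with 31 red points above and 37 below, and 30 blue points above and 32 below, where 34.8% of all kept transcripts lie above.

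Each transcript past 2-fold was also placed among all 4 RNA libraries. Of the 68 higher transcripts, the untreated 6 h library was the highest of the 4 in 33, the untreated 3 h library the lowest of the 4 in 16, both held in 16 and neither in 3. Of the 62 lower transcripts, the 6 h library was the lowest in 21, the 3 h library the highest in 16, both in 22 and neither in 3. These orders use the values that chose the groups and are given as a description. With the other 3 libraries within 2-fold of each other, the 6 h library was at least 2-fold above all of them in 12 higher transcripts, and the 3 h library at least 2-fold below all in 8. Among lower transcripts the 6 h library stood 2-fold below the other 3 in 11, and the 3 h library 2-fold above them in 1. These 32 transcripts are 0.293% of those kept. Over all kept transcripts by the same limits, the treated 3 h library stood apart in 7 (0.0641%) and the treated 6 h library in 1110 (10.2%).

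A set of 4 higher transcripts of nearly equal length, 3661 to 3667 nt, had a like order of libraries; it was picked after its values were seen, as the window of 10 nt that held the most higher transcripts. They had 17.1, 10.9, 23.6 and 14.6 CPM at 3 h and, in the same order, 50.8, 32.0, 54.3 and 31.3 CPM at 6 h untreated, or 2.98-, 2.93-, 2.30- and 2.14-fold higher. With triptolide they stood at 10.4, 6.31, 13.2 and 6.24 CPM at 3 h and at 12.9, 9.61, 17.2 and 8.10 CPM at 6 h. In each of the 4, both treated libraries were below the untreated 3 h library and the untreated 6 h library was the highest. Both treated libraries were below both untreated ones in 27.9% of the 68 higher transcripts and in 38.1% of all kept transcripts. The other 14 kept transcripts of this length range, by selection those not at least 2-fold higher, had log2 ratios from -0.28 to 0.47. None of the 4 had whole-number estimates, and whether they share reads was not tested.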

How the data were processed

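Poly(A) RNA libraries of 4 conditions, 1 each, were used; the series' other 23 libraries, of chromatin, were not analysed here. Per the file headers, the authors deposited an estimated count of reads, a TPM value, a length and an effective length per transcript, in Salmon's columns; TPM divides the deposited estimated counts by effective length. The sources used here do not give Salmon's version or its transcript set. Among tools, the submitters' processing notes list SAMtools 1.0.6, Bowtie 1.0.0 and FastQC 0.11.4, with no role stated for RNA.

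Estimated counts were rounded and divided by the library total. A count of 0 was set to 3 reads. Differences were called by size, at least 2-fold, with no p-value. Alternatives were TMM factors (edgeR 4.0.16), size factors (DESeq2 1.42.0), log2(TPM + 0.1), thinning, other filters and other limits. The code was tested on simulated counts. Python 3.11.15, scipy 1.17.1 and R 4.3.3 were used.

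Members, lists and tests were chosen with earlier results of these data known. Named transcripts were the first in each direction of 2 rankings by the interval bound nearest to no change, both with 100 reads or more in both untreated libraries and the same direction under all scalings: those past 2-fold, and whole-number transcripts. The files print 6 significant digits, so the whole-number set was limited to estimates under 10000 reads after the values were seen, which left out 6 of 123 kept transcripts. Gene lists needed gene names and were not run.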

Additional observations from a re-analysis of the deposited data

Results flagged for a closer look

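ENSMUST00000082398.1 (69 nt) was lower at 6 h without triptolide and about level with it. Its log2 ratio of 6 h over 3 h was -1.05 without triptolide (306 against 134 reads) and 0.10 with it (377 against 284 reads, 13.8 and 14.8 CPM). The 95% counting interval of the treated ratio, -0.13 to 0.33, includes 0. It does not overlap that of the untreated ratio, -1.36 to -0.75, and both cover counting error only. This order was not particular to ENSMUST00000082398.1. Among whole-number transcripts under 100 nt, the others of 69 nt and that of 71 nt were also lower in CPM at 6 h untreated and higher with triptolide. That of 74 nt was higher at 6 h in both arms. Of the 8 lowest untreated ratios at a mean CPM of 500 or more, 7 belonged to transcripts higher at 6 h with triptolide. Whether these transcripts vary together was not tested. Each arm has 1 library a time, and the difference between the arms was not tested.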

How the results depend on the processing

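The counts of 68 higher and 62 lower transcripts stayed within 1.5 times under TMM factors, DESeq2 size factors, log2(TPM + 0.1), thinning, unrounded estimates, a filter on the untreated libraries alone, and a minimum of 100 reads in both untreated libraries. They followed the filter and the limit: 188 and 186 with a mean CPM minimum of 5, 22 and 21 with one of 20, 5871 and 5251 with no CPM filter, 314 and 359 at 1.5-fold, 5 and 15 at 4-fold, 41 and 35 with the counting interval wholly beyond 2-fold, and 0 and 1 among whole-number transcripts. The median log2 ratio of -0.0096 was near 0 throughout. It became -0.0015 with TMM factors, -0.0040 with a minimum of 20 and -0.0711 among whole-number transcripts, and changed sign to 0.0001 with DESeq2 size factors, 0.0074 with no CPM filter and 0.0100 in TPM; the cause was not tested. The 4 named transcripts kept their direction, and stayed within their counting intervals, under all 3 scalings. The limits to whole-number transcripts, to 100 reads and to unrounded estimates were chosen after seeing the data. Sums per gene were not run, for want of gene names. No paired analysis was possible because the groups compared share only 1 replicate number, and the triptolide arm is another condition, not a replicate. Depth bounds a count of 0 at 3 reads, and intervals cover counting error only, since reads are not independent molecules.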
